A study of Rattus norvegicus with 18 samples.

Results

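Gene expression in the rat hippocampus was examined 3 days after status epilepticus (SE), the prolonged seizure that starts epileptogenesis in the pilocarpine model, and set against saline-treated rats. Of the 18 arrays of the series, 1 per rat, 5 were of rats 3 days after SE (D3) and 3 of saline-treated rats (Control), and these 8 arrays make up the comparison. The other 10 arrays, 5 taken 7 days after SE (D7) and 5 taken soon after the first spontaneous seizure (Chronic), enter only where D3 was tested against them. In all, 12331 genes were tested and 748 of them differed between D3 and Control. All rats were adult male Wistar rats. The rats of D3, D7 and Chronic had received scopolamine methylnitrate, which limits peripheral cholinergic effects, then pilocarpine, a muscarinic agonist, and diazepam to end the SE. The Control rats had received saline alone, so that the seizures, the pilocarpine, the scopolamine methylnitrate and the diazepam cannot be told apart as sources of a difference. By their labels the Control arrays were a 3 day control (array 26), a 7 day control (array 36) and an immediate control (array 47), so that only array 26 was matched in time to D3. In the study's methods each pilocarpine group had an age-matched saline group of its own. Here a single saline array per time was analysed, and the 3 together stand for those groups. Only rats that reached SE and survived it were studied, and the whole hippocampus was extracted.

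As background, seizures that kill hippocampal neurons are followed within days by a response of the glia. Astrocytes enlarge and take up a reactive state with more intermediate filament, microglia leave their resting state, divide and clear debris, and blood monocytes can enter the tissue. Matrix and protease genes are turned on during such repair, while transcripts of neurons fall when the cells die or lower their output. In RNA of a whole tissue, fewer cells of a type and less RNA per cell cannot be told apart.

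Values are normalized intensities, the brightness of a probe above its surroundings, scaled by a single factor for each array that places the median spot close to 1. They compare arrays for the same probe and do not rank different genes. In every list of values that follows, the D3 arrays stand in the order 11, 12, 13, 14 and 15 and the Control arrays in the order 26, 36 and 47. A spot that the scanner software flagged L was not well above background. The share of spots flagged L was 23.2% to 33.1% on these 8 arrays. Pairs of D3 arrays correlated at r = 0.960 to 0.970 over the probes, pairs of Control arrays at 0.965 to 0.967, and D3 with Control arrays at 0.945 to 0.955. Markers of hippocampal neurons (Slc17a7, Gad1), astrocytes (Aqp4), oligodendrocytes (Mbp) and endothelium (Cldn5) were flagged G, for good, on all 8 arrays, while the probe of the neuronal marker Snap25 was flagged L on all Control arrays and on 4 of the 5 D3 arrays. The 15 markers of choroid plexus and ependyma, tissue that lies against the hippocampus, split the arrays across the groups. Their mean lay 1.58, 1.48 and 1.14 above the Control mean (log2) on D3 arrays 11 and 14 and on Control array 26, and below 0, between -1.35 and -0.01, on the other 5 arrays. Counts are therefore also given without these 3 arrays, an alternative chosen after the values were seen. It also drops the only time-matched Control array (26) and leaves fewer arrays in both groups. Choroid tissue, time match and array number thus cannot be told apart where a call is lost under it.

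A gene was called higher or lower where limma's adjusted p was under 0.05 and the change at least 2-fold. At D3, 628 genes (5.09% of those tested) were higher and 120 (0.973%) were lower than in Control. Among probes, of which about as many carry no gene name as carry one, 1157 (3.42%) were higher and 395 (1.17%) were lower. The rises were also larger than the falls. Of the genes called, 167 were at least 4-fold higher and 4 were at least 4-fold lower, and 39 were at least 8-fold higher and 0 at least 8-fold lower. Past the adjusted p alone, with no limit on the fold, 1459 genes (11.8%) were higher and 2036 (16.5%) were lower, so that small falls were more common than small rises. The median gene lay at -0.10 (log2), and 40.7% of genes lay above 0. In 600 of the 628 genes that rose and in 115 of the 120 that fell, the values of the D3 and Control arrays did not overlap. Over all genes tested, the D3 arrays lay wholly above the Control arrays in 16.1% and wholly below in 26.4%. With each array scaled to the positive control spots in place of its median, 955 genes were higher and 36 lower and the median probe moved from -0.119 to 0.138, and without the 3 choroid-rich arrays 434 were higher and 76 lower.

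**Figure D1:**
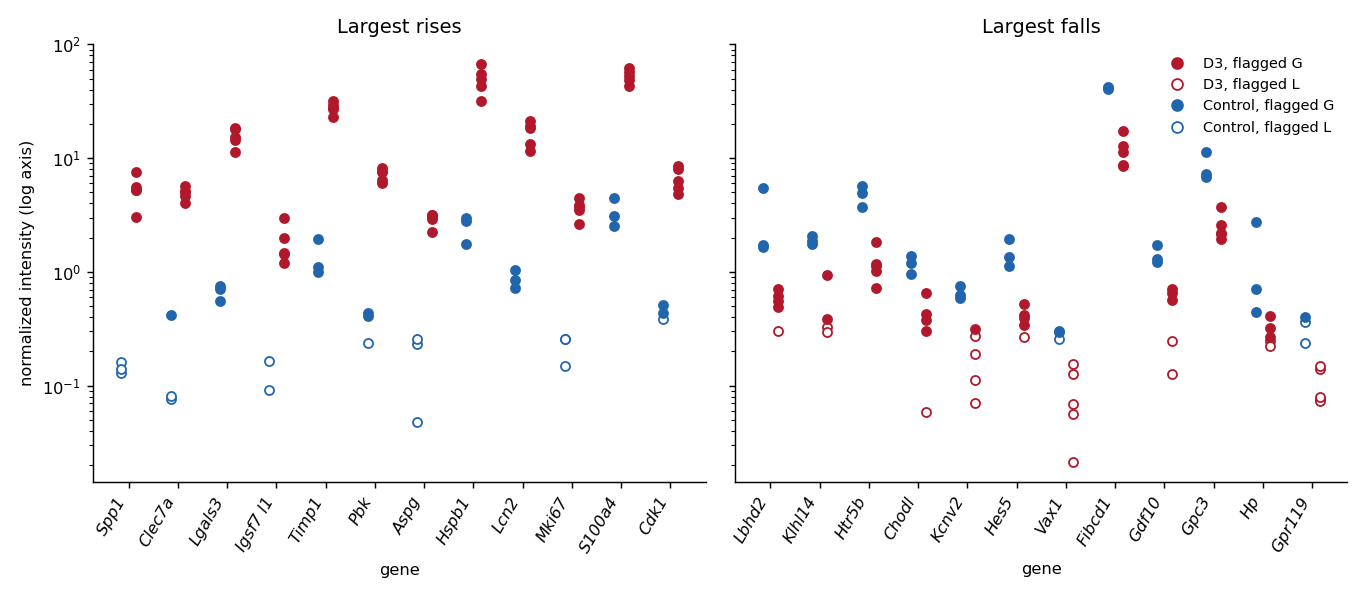
Normalized intensity (log axis) of the 12 named genes with the largest rise (left) and the 12 with the largest fall (right) on each of the 5 D3 arrays (red) and 3 Control arrays (blue). Filled points were flagged G and open points L, a value at or below 0 is not drawn, and the red and blue points of each gene do not overlap.

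The genes with the largest rises were those of phagocytes, reactive astrocytes and dividing cells. Spp1, or osteopontin, a secreted protein of phagocytes in injured tissue, had normalized intensities of 5.26, 5.27, 3.05, 7.51 and 5.61 at D3 and of 0.162, 0.128 and 0.139 in Control. All Control spots were flagged L, so that the rise was at least 18.1-fold (limma adjusted p = 2.8e-05). Clec7a, the beta-glucan receptor of phagocytes, was at 4.62, 5.69, 4.0, 5.18 and 5.02 at D3 and at 0.0768, 0.0808 and 0.417 in Control, where 1 of 3 spots was flagged G. The D3 arrays spanned a narrow range and lay far above every Control array, and the log2 fold change was 5.15 ± 0.51 (SE of the model, adjusted p = 3.5e-06). Lgals3, the lectin galectin-3, was at 14.6, 18.3, 11.3, 17.9 and 15.3 at D3 and at 0.553, 0.705 and 0.749 in Control, a log2 fold change of 4.52 ± 0.42 (adjusted p = 1.7e-06). Timp1, an inhibitor of matrix metalloproteinases, was at 27.3, 31.6, 23.0, 29.4 and 26.8 at D3 and at 1.09, 1.0 and 1.93 in Control. Its rise was 4.42 ± 0.56 on the log2 scale (adjusted p = 3.5e-05), with the groups wide apart. S100a4, a calcium-binding protein of migrating and myeloid cells, rose by 3.99 ± 0.27 (adjusted p = 3.1e-08), from 2.54, 3.12 and 4.48 in Control to 53.1, 42.7, 61.8, 48.5 and 57.3. Igsf7 l1, an immunoglobulin superfamily gene named from an expressed sequence, was flagged L on all Control arrays and was at least 6.05-fold higher at D3 (adjusted p = 9.3e-05). The calls of these 6 genes held when any single array of either group was left out.

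Genes of cell division rose together. Mitosis is driven by Cdk1 with cyclins A and B, chromosomes are condensed and untangled with the help of Top2a, and Mki67 coats the chromosomes of cycling cells and is their usual marker. Of 43 measured genes of mitosis 23 rose and 0 fell, against a background of 5.09% higher among all genes, and the median log2 fold change of the 43 was 1.44. Like every list here, this one was chosen with earlier results of these data known, so that its share is not independent support. The D3 arrays lay wholly above the Control arrays for 31 of the 43 and wholly below for 2, against 16.1% and 26.4% of all genes. All 23 calls held when any single array was left out, and 23 of the 43 were called without the 3 choroid-rich arrays. The mean of the list lay between 1.36 and 1.76 above Control (log2) on the D3 arrays, lowest on arrays 13 and 14.

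Mki67 was at 4.47, 3.73, 2.65, 3.49 and 3.91 at D3, while its 3 Control spots, at 0.260, 0.256 and 0.15, were all flagged L. It was thus at least 12.7-fold higher at D3 (adjusted p = 3.4e-06). Cdk1 was at 8.07, 8.53, 4.79, 5.43 and 6.30 at D3 and at 0.387, 0.435 and 0.515 in Control, and its log2 fold change was 3.87 ± 0.38 (adjusted p = 3.4e-06). Every D3 array was far above every Control array for both. Top2a was at 11.1, 10.2, 7.45, 7.92 and 10.3 at D3 and at 0.603, 0.849 and 0.635 in Control, a log2 fold change of 3.75 ± 0.43 (adjusted p = 1.3e-05). Pbk, a kinase active in mitosis, was at 7.59, 7.74, 6.45, 6.10 and 8.16 at D3 and at 0.236, 0.438 and 0.412 in Control, with a log2 fold change of 4.36 ± 0.36 (adjusted p = 4.9e-07). D3 arrays 13 and 14 were the lowest of the 5 for Cdk1, Top2a and Pbk, and each was still well above Control. Among the other members that rose, Kif20a, a kinesin of cytokinesis, reached a log2 fold change of 3.01 ± 0.36, Ccna2, cyclin A, 2.85 ± 0.37, and Cdc20, an activator of the anaphase-promoting complex, 2.74 ± 0.30. Not every mitotic gene was called: Ccnb1, cyclin B, had a log2 fold change of 0.97 and Aurkb, a kinase of the chromosomal passenger complex, 0.94, just under the 2-fold limit, while Plk1 had 0.13 and Foxm1, a transcription factor of mitotic genes, also 0.13.

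The promoters of mitotic genes often hold CCAAT boxes, bound by NF-Y, and the sequence TTTGAA, known as the cell cycle genes homology region, which complexes of the DREAM and MuvB family bind. The RefSeq promoter table (250 bases before to 50 after each gene's start, build GRCr8) held 19 of the 23 genes that rose and 17 of the 20 that were not called. Searched on both strands, CCAAT was present in 17 of the 19 (89.5%) and TTTGAA in 17 of the 19 (89.5%), with both in 16 (84.2%). Of the 17 not called, 13 (76.5%) held CCAAT, 10 (58.8%) held TTTGAA and 9 (52.9%) held both. Among all 27457 promoters of this length the shares were 37.7%, 18.1% and 7.25%. The ends of both motifs can share a base, as at 1 place in Mki67, and a match describes the letters only, not a bound site. The 3 genes of mitosis with the largest rise that the table holds show where the motifs lie. Each line gives the last 200 bases before the start, 5′ to 3′ on the strand of the gene, with CCAAT or TTTGAA on either strand in capitals, and the first capitals of Top2a are the end of a motif that begins 1 base outside the window.
Mki67: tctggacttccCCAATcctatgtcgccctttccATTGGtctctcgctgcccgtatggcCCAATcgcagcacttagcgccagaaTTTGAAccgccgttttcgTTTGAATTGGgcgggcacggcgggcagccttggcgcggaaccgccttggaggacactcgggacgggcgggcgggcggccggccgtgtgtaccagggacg
Cdk1: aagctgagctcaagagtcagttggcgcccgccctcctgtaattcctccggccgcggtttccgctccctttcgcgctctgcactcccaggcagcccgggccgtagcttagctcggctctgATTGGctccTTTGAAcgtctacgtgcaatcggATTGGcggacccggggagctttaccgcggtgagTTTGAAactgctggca
Top2a: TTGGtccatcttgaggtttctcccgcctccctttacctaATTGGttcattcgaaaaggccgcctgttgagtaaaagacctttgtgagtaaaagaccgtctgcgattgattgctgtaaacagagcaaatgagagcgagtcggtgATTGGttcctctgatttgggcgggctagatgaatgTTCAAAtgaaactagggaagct
They lie on GRCr8 at chr1:199952594-199952793 (minus strand), chr20:19265093-19265292 (plus strand) and chr10:84473094-84473293 (minus strand). All of these windows hold both motifs, and in each of them CCAAT boxes lie upstream of the TTTGAA nearest to the start.

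Genes of DNA replication also rose. Of 27 measured, 10 rose and 0 fell, with a median log2 fold change of 0.77, and 8 of the 10 calls held when any single array was left out. Without the 3 choroid-rich arrays 6 of 26 were called. Rrm2, a subunit of the enzyme that makes deoxyribonucleotides, was flagged L on all Control arrays and was at least 5.09-fold higher at D3 (adjusted p = 0.00021). Mcm5, of the replicative helicase, was at 1.71, 1.64, 1.05, 1.54 and 1.5 at D3 against 0.205, 0.236 and 0.0928, all flagged L, in Control, and was at least 5.17-fold higher (adjusted p = 0.0011). Array 13 was the lowest for it and did not overlap with Control, and Mcm5 was not called against the time-matched Control array alone (adjusted p = 0.0754). Mcm6, of the same helicase, was at 5.74, 5.67, 3.85, 5.49 and 5.09 at D3 and at 1.66, 1.90 and 1.77 in Control (log2 fold change 1.53 ± 0.29, adjusted p = 0.0011), while its other probe was not called and had the opposite sign, at -0.33. Pcna, the sliding clamp of the polymerases, had a log2 fold change of 0.77 and was not called. Of 21 measured cyclins D and cell cycle inhibitors 5 rose and 0 fell. The inhibitor Cdkn2c rose by 1.60 ± 0.17 (adjusted p = 5.2e-06, with its other 2 probes at 1.66 and -0.60), from 2.63, 3.20 and 3.04 in Control to 8.72, 10.01, 7.34, 8.13 and 11. Gadd45a, a growth arrest gene, rose by 2.21 ± 0.27 (adjusted p = 2.8e-05), from 1.95, 1.96 and 2.23 to 9.86, 8.66, 8.15, 10.8 and 10.1. The inhibitor Cdkn1a, a target of p53, was at 12.4, 10.4, 9.60, 13.9 and 10.8 at D3 and at 7.29, 3.03 and 3.58 in Control, with the time-matched Control array the nearest to D3. Its log2 fold change was 1.40 ± 0.30 (adjusted p = 0.0029), and it was not called against that array alone (log2 fold change 0.64). The other probe of Cdkn1a was called higher, at 2.29.

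**Figure D2:**
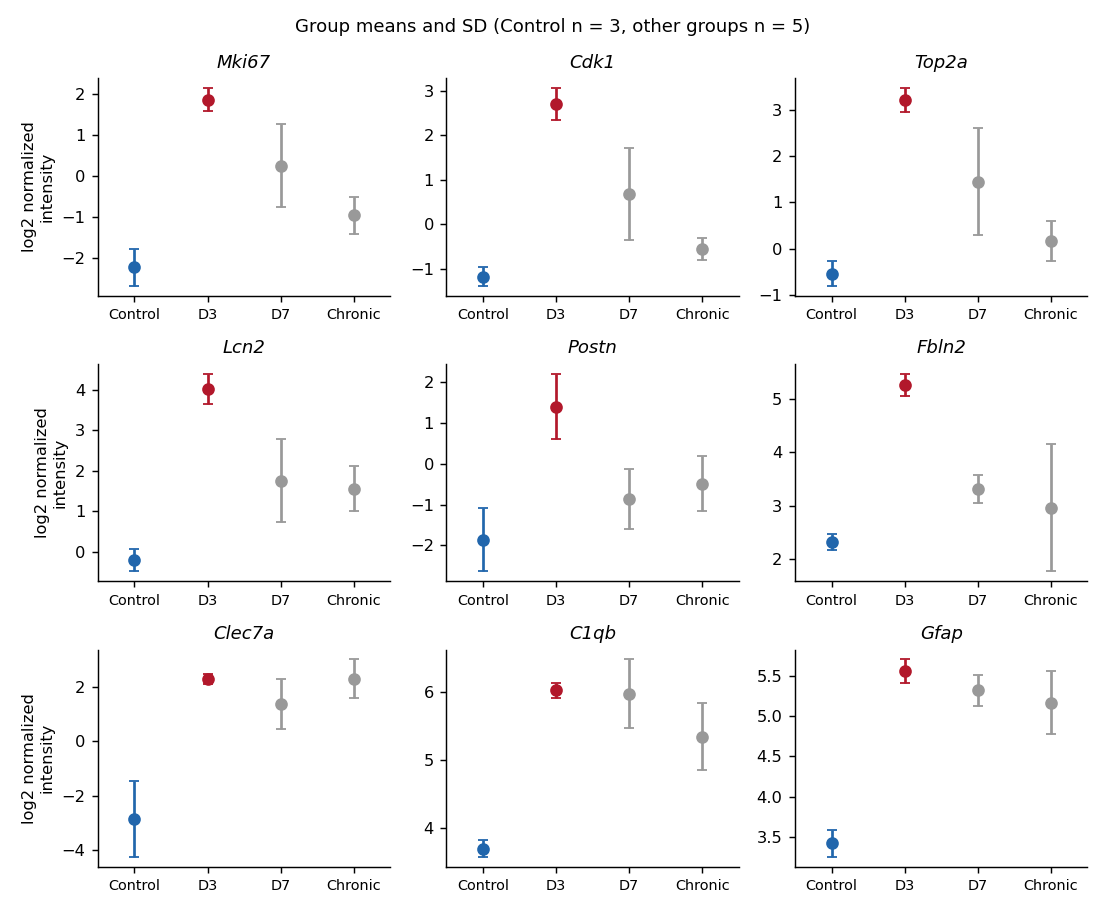
Group means of log2 normalized intensity with the SD over arrays for 9 genes in Control (n = 3, blue), D3 (n = 5, red), D7 and Chronic (n = 5 each, grey); each panel has its own vertical scale. Mki67, Cdk1, Top2a, Lcn2, Postn and Fbln2 were highest at D3, while Clec7a, C1qb and Gfap stayed near their D3 level at one or both later times.

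The test of D3 against the later groups, whose differences take no value from the Control arrays though they share the fit's spread, compared these values with later times. Of the 628 genes that rose at D3, 48 were also higher than at D7, 101 were higher than in Chronic and 42 were higher than in both, and none was lower than either. The same D3 arrays picked out these 628 genes and the 120 that fell. Counts within both sets are thus tilted toward the same direction and are not independent support. Over all genes tested, 56 (0.454%) were higher and 9 (0.073%) lower at D3 than at D7, and 123 (0.997%) were higher and 15 (0.122%) lower than in Chronic. Of the 43 genes of mitosis 20 were higher at D3 than at D7 and 27 higher than in Chronic. Mki67 was higher at D3 by 1.60 ± 0.35 than at D7 and by 2.81 ± 0.35 than in Chronic, and Cdk1 by 2.02 ± 0.33 and 3.25 ± 0.33 (log2). Of the 27 genes of DNA replication 1 was higher than at D7 and 9 were higher than in Chronic. Lcn2, Postn and Fbln2, described with their groups, were higher than in both. Among the 24 measured genes of phagocytes 1 was higher than at D7 and 3 were higher than in Chronic, and of the 14 measured complement components 0 were higher than at D7 and 1 was higher than in Chronic. Clec7a stood 0.92 ± 0.44 above D7 and 0.00 ± 0.44 from Chronic. Of the 120 genes that fell, 3 were also lower than at D7, 3 were lower than in Chronic and 2 were lower than in both.

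Among the 63 lists, reactive astrocytes had the highest share of members that rose. The lists were chosen with earlier results of these data known, so that this ranking is not independent support. Of 28 measured genes of this state 19 rose and 0 fell, with a median log2 fold change of 2.02, and 15 of the 19 calls held when any single array was left out. Without the 3 choroid-rich arrays 14 of 25 rose. Gfap, the intermediate filament that defines astrocytes, was at 56.0, 45.1, 46.9, 46.8 and 42.7 at D3 and at 9.95, 12.2 and 10.01 in Control, and rose by 2.15 ± 0.17 (adjusted p = 3.9e-07). Vim, vimentin, a second filament of reactive astrocytes, was at 102, 113, 88.2, 96.8 and 98.1 at D3 and at 11.1, 10.1 and 25.2 in Control (log2 fold change 2.81 ± 0.27). Both filaments were several times higher on each D3 array than on any Control array. Lcn2, or lipocalin-2, an iron-siderophore carrier that reactive astrocytes secrete, was at 19.2, 21.1, 18.3, 13.3 and 11.6 at D3 and at 1.05, 0.717 and 0.854 in Control. It rose by 4.24 ± 0.42 (adjusted p = 3.2e-06) and was higher than at D7 by 2.27 ± 0.36 and than in Chronic by 2.47 ± 0.36. Hspb1, the small heat shock protein Hsp27, was at 49.6, 67.4, 31.7, 55.3 and 43.2 at D3 and at 2.81, 1.76 and 3.00 in Control (log2 fold change 4.29 ± 0.52, adjusted p = 2.8e-05). Aspg, an asparaginase found in reactive astrocytes, was flagged L on all Control arrays and was at least 10.2-fold higher at D3 (adjusted p = 3.3e-05). The groups did not overlap for any of these 5.

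Nes, or nestin, the filament of neural progenitors and reactive astrocytes, was at 4.51, 5.66, 3.08, 4.12 and 3.77 at D3 and at 1.33, 1.60 and 1.64 in Control. It rose by 1.45 ± 0.19 (adjusted p = 5.0e-05) and was higher than at D7 by 1.15 ± 0.17 and than in Chronic by 1.26 ± 0.17. Cd44, the hyaluronan receptor, rose by 2.74 ± 0.39 (adjusted p = 0.00012), from 1.12 and 1.25 on the 2 Control arrays with a value to 8.05, 8.71, 6.07, 9.32 and 7.74, and could not be tested with 1 of these 2 left out. A2m, a broad protease inhibitor, rose by 2.82 ± 0.15 (adjusted p = 2.7e-09), from 4.95, 3.61 and 4.48 to 27.9, 27.5, 34.4, 28.4 and 34.8. Its D3 values had a narrow spread. S100a10, the annexin partner p11, was at least 4.59-fold higher at D3 (adjusted p = 0.0002), and Cp, the ferroxidase ceruloplasmin, rose by 2.28 ± 0.24 (adjusted p = 6.0e-06). The 23 measured genes of homeostatic astrocytes behaved otherwise, with 1 higher, 2 lower and a median of -0.08. Fabp7, a brain fatty acid carrier, rose by 1.40 ± 0.19 (adjusted p = 6.3e-05). Agt, angiotensinogen, which astrocytes secrete, was at 1.29, 1.38, 1.66, 1.67 and 1.58 at D3 and at 4.24, 3.30 and 3.85 in Control, a log2 fold change of -1.32 ± 0.21 (adjusted p = 0.00023). Hes5, a transcriptional target of Notch, was at 0.266, 0.526, 0.419, 0.397 and 0.343 at D3 and at 1.13, 1.37 and 1.95 in Control (log2 fold change -1.92 ± 0.37, adjusted p = 0.0014, not called against the time-matched Control array alone, at -1.57). The other probe of Hes5, at -0.69, was not called. Both genes lay lower on every D3 array than on any Control array. The glutamate transporter Slc1a2, at 0.72, the water channel Aqp4, at 0.45, and the astrocyte enzyme Glul, at 0.22, were not called.

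**Figure D3:**
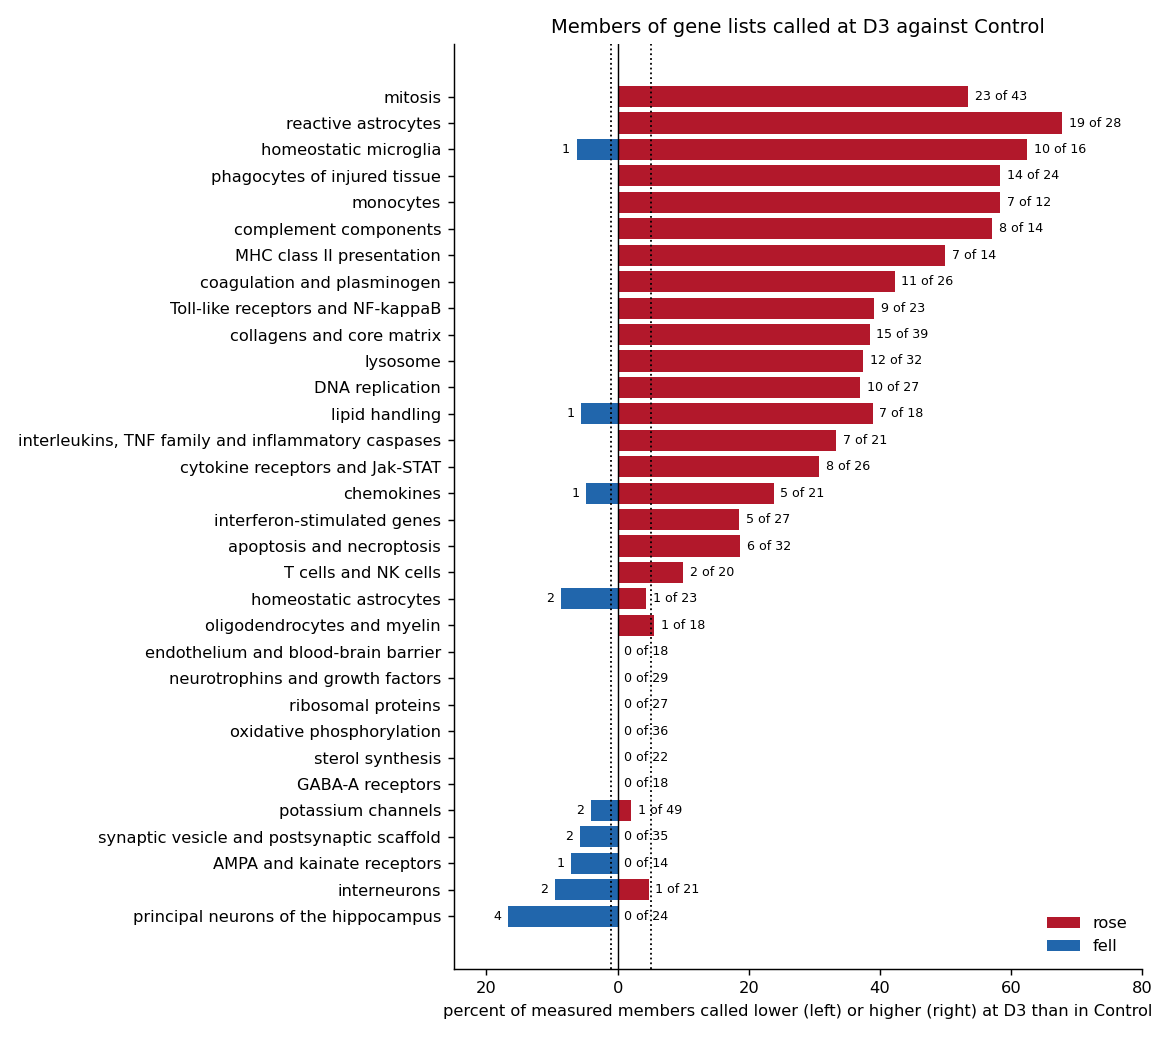
Percent of the measured members of 32 gene lists that were called higher (red, right) or lower (blue, left) at D3 than in Control, with the counts beside the bars. Dotted lines mark the share over all 12331 genes tested, 5.09% higher and 0.973% lower. Lists of reactive astrocytes, microglia, phagocytes, division and matrix and most immune lists reach far to the right of them. The shares called higher of homeostatic astrocytes (4.35%), myelin (5.56%) and T and NK cells (10%) lie closer to the line. The neuronal lists hold few calls, most of them lower, and GABA-A receptors hold none.

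Genes of microglia and phagocytes rose. Microglia are the resident macrophages of the brain, and after injury they and infiltrating macrophages share many transcripts, so that these lists do not separate the cells. Of 16 measured genes of homeostatic microglia 10 rose and 1 fell, with a median of 1.30, and 9 of the 11 calls held when any single array was left out. Without the 3 choroid-rich arrays 6 of 15 rose. Tyrobp, a signaling adaptor of microglia, was at 74.9, 65.4, 65.5, 62.6 and 67.7 at D3 and at 17.2, 16.8 and 21.3 in Control (log2 fold change 1.87 ± 0.27, adjusted p = 0.00011). P2ry12, the ADP receptor that marks resting microglia, was at 3.92, 3.00, 2.29, 2.42 and 2.38 at D3 and at 0.804, 1.03 and 0.678 in Control (log2 fold change 1.73 ± 0.27, adjusted p = 0.00023). Slc2a5, a fructose transporter, rose by 2.01 ± 0.31 (adjusted p = 0.00019). All 3 were higher on every D3 array than on any Control array. Csf1r, the receptor that keeps microglia alive, was at 68.0, 51.7, 52.8, 49.99 and 48.2 at D3 and at 26.1, 27.6 and 28.5 in Control, and its log2 fold change of 0.97 ± 0.19 fell just short of the 2-fold limit. Tmem119 had a log2 fold change of 0.32 and was not called.

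Of 24 measured genes of phagocytes of injured tissue 14 rose and 0 fell, with a median of 1.65, and 13 of 24 rose without the 3 choroid-rich arrays. Spp1, Clec7a and Lgals3 belong to this list. Gpnmb, a lysosomal glycoprotein, was at 45.6, 48.8, 40.6, 42.2 and 39.9 at D3 and at 3.35, 4.25 and 4.44 in Control (log2 fold change 3.44 ± 0.22, adjusted p = 2.2e-08). Cd68, a lysosomal marker of macrophages, was at 12.9, 13.6, 11.5, 12.4 and 15 at D3 and at 1.09, 0.837 and 1.67 in Control (log2 fold change 3.5 ± 0.48, adjusted p = 8.1e-05). Cd14, a co-receptor for lipopolysaccharide, was at 11.2, 14.3, 10.8, 24.3 and 15.1 at D3 and at 1.04, 0.880 and 1.53 in Control (log2 fold change 3.69 ± 0.45, adjusted p = 2.8e-05). Array 14 was the highest for Cd14, and the groups did not overlap for any of the 3. Hmox1, which degrades heme, rose by 2.60 ± 0.40 (adjusted p = 0.00022), and Plin2, a coat protein of lipid droplets, by 1.73 ± 0.21 (adjusted p = 2.8e-05). Apoe had a log2 fold change of -0.23, and Lpl, a lipase, of 1.94 without passing the adjusted p.

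Of 32 measured lysosomal genes 12 rose and 0 fell, with a median of 0.83. The D3 arrays lay wholly above Control for 25 of them, against 16.1% of all genes. The protease Ctsz rose by 2.77 ± 0.40 (adjusted p = 0.00011), from 1.04, 1.15 and 1.38 to 8.46, 7.60, 6.26, 8.91 and 9.40, and Ctsc, which activates granule proteases, by 1.89 ± 0.25 (adjusted p = 4.8e-05). The phagocyte oxidase gene Ncf4 rose by 3.07 ± 0.38 (adjusted p = 3.3e-05), and Cybb, its membrane subunit, by 2.52 ± 0.34 (adjusted p = 5.5e-05). Among genes of lipid handling 7 of 18 rose and 1 fell, and the sterol efflux transporter Abca1 rose by 1.74 ± 0.18 (adjusted p = 5.4e-06), from 0.705, 0.916 and 1.0 to 2.25, 3.44, 2.68, 2.94 and 3.26. The gene of this list that fell was Cyp46a1, the neuronal enzyme of cholesterol turnover (log2 fold change -1.08 ± 0.16, adjusted p = 0.00018), which was not called against the time-matched Control array alone (-0.98), with quantile normalization (-0.87) or with positive control scaling (-0.82).

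Complement marks debris and synapses for removal by phagocytes, and its C1q subunits are made by microglia. Of 14 measured components and receptors 8 rose and 0 fell, with a median of 1.72, all 8 calls held when any single array was left out, and 6 of 13 rose without the 3 choroid-rich arrays. C1qb was at 72.1, 63.3, 58.5, 66.0 and 65.9 at D3 and at 13.5, 11.8 and 13.8 in Control (log2 fold change 2.32 ± 0.25, adjusted p = 6.6e-06). C1qc was at 37.6, 45.4, 31.5, 41.7 and 41.2 at D3 and at 6.48, 6.98 and 7.20 in Control (log2 fold change 2.51 ± 0.28, adjusted p = 1.0e-05). C3ar1, the receptor of the C3a fragment, rose by 2.26 ± 0.32 (adjusted p = 9.2e-05). The spread of these values within D3 was small next to the distance from Control. C3 itself had a log2 fold change of 0.25 on its probe and was not called. Of 8 measured regulators 2 rose. One was Serping1, the C1 inhibitor, by 2.88 ± 0.25 (adjusted p = 1.7e-06), with Control values of 0.966 and 2.73 on the 2 arrays measured, neither of which could be left out of the test.

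MHC class II molecules present peptides to CD4+ T cells, with Cd74 as their chaperone. Of 14 measured genes of class II presentation 7 rose and 0 fell, with a median of 1.65, and 7 of 14 also rose without the 3 choroid-rich arrays. Cd74 was at 20.1, 19.4, 20.7, 13.3 and 39.0 at D3 and at 2.31, 1.52 and 4.75 in Control (log2 fold change 3.05 ± 0.48, adjusted p = 0.00024). RT1-Da, a class II chain, was at 6.70, 7.21, 5.74, 4.45 and 17.9 at D3 and at 0.664, 0.438 and 1.21 in Control (log2 fold change 3.39 ± 0.53, adjusted p = 0.00023). RT1-Ba, another chain, was at 7.25, 6.47, 5.20, 4.13 and 14.2 at D3 and at 1.06, 0.841 and 1.79 in Control (log2 fold change 2.54 ± 0.52, adjusted p = 0.0019, not called against the time-matched Control array alone, at 2.68). Array 15 was the highest and array 14 the lowest for all 3, and the mean of the list on the D3 arrays ran from 1.13 to 2.44 above Control, a wider range than that of the phagocyte list, 1.74 to 2.04. Ifi30, a reductase of antigen processing, rose by 2.53 ± 0.32 (adjusted p = 3.9e-05). Of 16 measured genes of class I presentation 4 rose and 0 fell, with a median of 0.53, among them the proteasome subunits Psmb8 (1.42 ± 0.38) and Psmb9 (1.44 ± 0.33). Neither was called without the choroid-rich arrays (1.56 and 1.38) or against the time-matched Control array alone (1.39 and 1.66), and 1 of the 16 was called without the choroid-rich arrays.

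**Figure D4:**
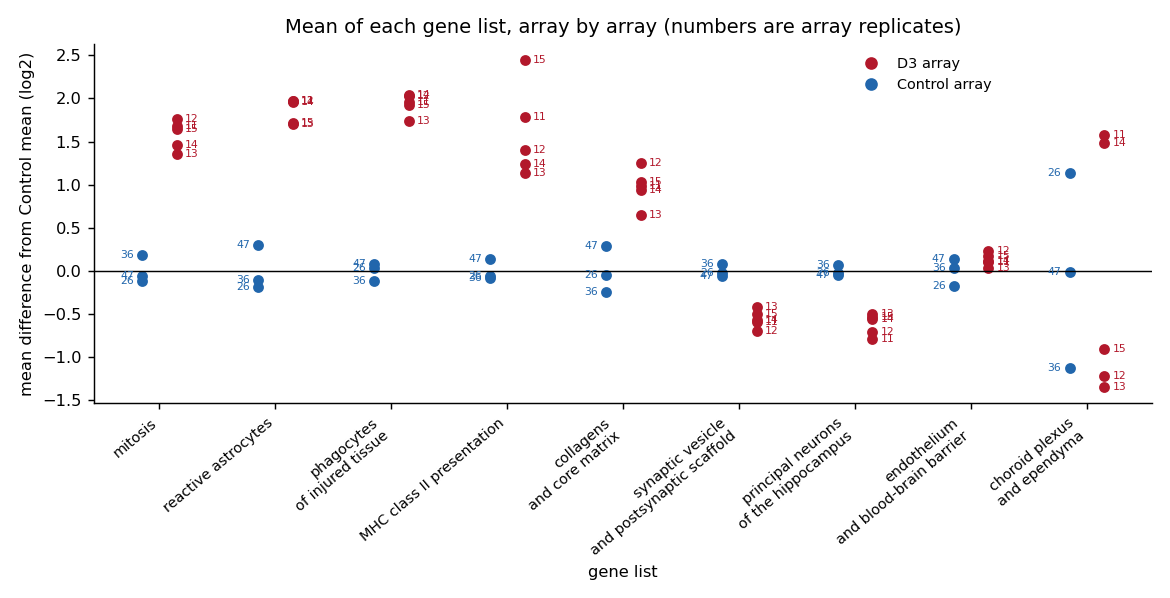
Mean difference from the Control mean (log2) over the measured members of 9 gene lists on each D3 array (red) and Control array (blue), with the array numbers beside the points. The D3 arrays lie above every Control array for division, astrocytes, phagocytes, MHC class II and matrix and below for both neuronal lists, array 15 is highest for MHC class II, and the choroid plexus list splits the arrays of both groups.

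Markers of blood leukocytes were mixed, beside 5.09% called higher and 0.973% called lower over all genes. Of 12 measured genes of monocytes 7 rose and 0 fell, and 6 of 12 rose without the choroid-rich arrays. They included S100a4 and Vcan, a matrix proteoglycan that other cells also make, and Ms4a6a, which was at least 3.01-fold higher at D3 (adjusted p = 0.0011, not called against the time-matched Control array alone, adjusted p = 0.0888). Ccr2, the chemokine receptor of inflammatory monocytes, was flagged L on all Control arrays and on 3 of the 5 D3 arrays and was not called. Of 20 measured genes of T and NK cells 2 rose and 0 fell, with a median of 0.16. Cd8b was at 0.553, 0.71, 0.625, 0.567 and 0.831 at D3 against 0.123, 0.0759 and 0.0935, all flagged L, in Control, and was at least 2.29-fold higher (adjusted p = 3.2e-05), while Cd3d, a chain of the T cell receptor complex, had a log2 fold change of -0.22 and Cd3e one of 0.18. Of 10 measured genes of neutrophils 0 rose and 1 fell. This was Cxcr2, a chemokine receptor, flagged L on all D3 arrays and overlapping between the groups (adjusted p = 0.027), a call lost without D3 array 12 (adjusted p = 0.0609) or 13 (0.0561) and without Control array 26 (0.126) or 47 (0.101). Mpo was flagged L on all 8 arrays. Of the leukocyte integrins and adhesion molecules 5 of 16 rose. These 5 include Itgb7, an integrin beta chain, at a log2 fold change of 1.45 on its brightest probe. The other probe of Itgb7 was called lower, at -1.81, so that its direction is not settled. Itgb7 is not part of the later counts of named genes. Itgal, the alpha chain of LFA-1, was at 4.22, 3.43, 3.05, 2.60 and 4.72 at D3 and at 0.273, 0.446 and 0.385 in Control (log2 fold change 3.29 ± 0.45, adjusted p = 7.4e-05), but its other probe, at 0.07, was not called. Itgb2, the beta chain, rose by 2.13 ± 0.39 (adjusted p = 0.00093).

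Of 21 measured chemokines 5 rose and 1 fell. Ccl3, an attractant of monocytes and T cells, was at 1.20, 1.38, 1.10, 1.80 and 1.22 at D3 against 0.173, 0.139 and 0.0501, all flagged L, in Control, and was at least 4.64-fold higher (adjusted p = 8.9e-06). Cxcl1, a neutrophil attractant, was at least 5.52-fold higher (adjusted p = 0.0031), and Ccl4 at least 3.66-fold higher (adjusted p = 0.0032), and neither was called against the time-matched Control array alone (adjusted p = 0.129 and 0.132), nor was Ccl4 without the choroid-rich arrays (adjusted p = 0.0505). Ccl2, the main attractant of monocytes, was at 8.19, 16.2, 7.68, 16.5 and 13.3 at D3 and at 5.48, 5.96 and 5.77 in Control. Every D3 array was above Control, but the log2 fold change of 1.04 ± 0.55 did not pass (adjusted p = 0.2). The interleukins and TNF family, with the inflammatory caspases, gave 7 rises and 0 falls of 21. Il18 rose by 1.47 ± 0.24 (adjusted p = 0.00032), from 0.805, 0.953 and 0.992 to 2.42, 2.39, 2.40, 2.90 and 2.61. Casp4, an inflammatory caspase, rose by 1.90 ± 0.24 (adjusted p = 4.1e-05), from 0.986, 1.36 and 1.24 to 3.93, 4.86, 3.85, 5.07 and 4.59. Pycard, the inflammasome adaptor, rose by 2.10 ± 0.42 (adjusted p = 0.0018), a call lost without the choroid-rich arrays (1.76). Of the cytokines not called, Il1b was flagged L on all Control arrays and on 4 of the 5 D3 arrays, Il6 had a log2 fold change of 0.10 and Tnf one of -0.29.

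Receptors for innate signals and cytokines followed. Of 23 measured genes of the Toll-like receptor and NF-kappaB list 9 rose and 0 fell, with a median of 0.67, and all 9 calls held when any single array was left out. Bcl3, a nuclear partner of NF-kappaB, was at 1.61, 1.69, 1.19, 1.89 and 1.76 at D3 and at 0.0800, 0.199 and 0.484 in Control (log2 fold change 3.03 ± 0.45, adjusted p = 0.00017). Its Control spots on arrays 26 and 36 were flagged L, and as many Control spots, 2 of 3, were flagged L for Kif20a, Cdc20, C3ar1, Ncf4 and Plcb2, so that the sizes of these rises rest in part on values near background. Ly86, which binds the receptor-like Cd180, rose by 2.06 ± 0.36 (adjusted p = 0.0006). Tlr7, a sensor of RNA, rose by 1.68 ± 0.23, while Tlr3 (0.96) was not called and Tlr4 was flagged L on all 8 arrays. Of 26 measured cytokine receptors and genes of the Jak-STAT pathway 8 rose and 0 fell. Jak3 was at 9.36, 9.59, 8.56, 9.44 and 8.48 at D3 and at 3.66, 3.26 and 4.17 in Control (log2 fold change 1.30 ± 0.20, adjusted p = 0.00019), and Il2rg, the common gamma chain that signals through it, rose by 1.54 ± 0.29 (adjusted p = 0.00094). Stat3, at 1.02 ± 0.18 (adjusted p = 0.00067), lay at the 2-fold limit and was not called without D3 array 14 (0.98), without Control array 36 (0.96), without the choroid-rich arrays (1.0) or against the time-matched Control array alone (0.98). The other 2 probes of Stat3 were called higher, at 1.25 and 1.53. Of 27 measured interferon-stimulated genes 5 rose and 0 fell, and 1 rose without the choroid-rich arrays. Ifitm3, a restriction factor of viral entry, rose by 2.06 ± 0.37 (adjusted p = 0.00081), while Mx1 (0.19), Ifit1 (-0.31) and Irf7 (0.69), which follow type I interferon, were not called.

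Genes of the extracellular matrix rose. Of 39 measured collagens and core matrix genes 15 rose and 0 fell, with a median of 0.94, and 10 of 38 rose without the choroid-rich arrays. Fbln2, fibulin-2, was at 33, 46.8, 35.3, 36.4 and 42.1 at D3 and at 4.69, 4.73 and 5.63 in Control, and rose by 2.94 ± 0.42 (adjusted p = 9.9e-05). It was higher than at D7 by 1.95 ± 0.36 and than in Chronic by 2.30 ± 0.36. Postn, periostin, was at 2.18, 5.43, 1.21, 2.57 and 3.46 at D3 and was flagged L on all Control arrays, so that it was at least 8.02-fold higher (adjusted p = 0.00012), and it exceeded D7 by 2.27 ± 0.41 and Chronic by 1.89 ± 0.41. The D3 values of Postn spread widely, from array 13 to array 12, but did not reach Control. Tnc, tenascin-C, was at 15.5, 16.4, 11.8, 16.4 and 15.3 at D3 and at 3.89, 4.20 and 4.13 in Control (log2 fold change 1.88 ± 0.37, adjusted p = 0.0016, not called against the time-matched Control array alone, at 1.94). Lox, which crosslinks collagen, rose by 2.52 ± 0.52 (adjusted p = 0.0021), a call lost without the choroid-rich arrays (2.24). The fibrillar collagens Col1a1 (-0.25) and Col1a2 (-0.08) were not called. Of 22 metalloproteinases and inhibitors 2 rose (9.09%) and 0 fell, the inhibitor Timp1 and the protease Mmp14 (1.59 ± 0.29, adjusted p = 0.00089). Of 17 genes of perineuronal nets and hyaluronan 4 rose (23.5%) and 0 fell. Over all genes 5.09% were called higher.

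Of 26 measured genes of coagulation and plasminogen 11 rose and 0 fell, with a median of 0.82, but 5 of the 11 calls held when any single array was left out, and 4 of 26 rose without the choroid-rich arrays. Plau, urokinase, the activator of plasminogen, was at 2.67, 3.65, 2.46, 4.42 and 3.48 at D3 and at 0.577, 0.508 and 0.649 in Control (log2 fold change 2.50 ± 0.32, adjusted p = 4.5e-05), and its other probe, at 0.36, was not called. Plaur, its receptor, was flagged L on all Control arrays and at least 3.52-fold higher at D3 (adjusted p = 0.0044). Plaur was not called without the choroid-rich arrays (adjusted p = 0.0687) or against the time-matched Control array alone (adjusted p = 0.131). The Control arrays did not overlap with D3 for either gene.

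A list of 31 genes holds those that the study names for its different times, signaling genes and genes it checked by PCR among them. Of these, 30 were measured. They were chosen by the study on these same samples, so that their direction is not independent evidence. Of the 30, 15 rose and 4 fell, and 10 rose and 3 fell without the choroid-rich arrays. Tgfb1, the cytokine TGF-beta 1, was at 2.29, 2.06, 2.01, 2.15 and 1.96 at D3 and at 0.696, 0.278 and 0.716 in Control (log2 fold change 2.01 ± 0.32, adjusted p = 0.00028), and its other probe, at 0.71, was not called. Igf1, a growth factor that phagocytes make after injury, was at 7.44, 11.4, 8.56, 8.59 and 7.94 at D3 and at 1.70, 1.94 and 1.58 in Control (log2 fold change 2.32 ± 0.32, adjusted p = 8.5e-05). For both, the D3 arrays agreed closely and lay above Control. Acvr1c, an activin receptor, rose by 1.48 ± 0.37 (adjusted p = 0.0068), and Tgfbr1, the receptor of TGF-beta, by 1.23 ± 0.27 (adjusted p = 0.0034, with its other 3 probes between -0.28 and 1.38), and neither was called without the choroid-rich arrays (1.53 and 1.18) or against the time-matched Control array alone (1.41 and 1.35). Ifngr1, the interferon gamma receptor, at 1.03 ± 0.12 (adjusted p = 2.1e-05), was at the 2-fold limit and was not called without Control array 47 (0.96) or against the time-matched Control array alone (0.99). Plcb2, a phospholipase C, rose by 1.62 ± 0.32 (adjusted p = 0.0017), a call lost without the choroid-rich arrays (1.27). Foxd3 is counted among the 15 but was flagged L on all 8 arrays, so that no fold is given for it. It was removed untested by the filter on dim probes and was not called with the floor at percentile 5 (adjusted p = 0.133), without D3 array 15 (adjusted p = 0.0519) or without Control array 36 (adjusted p = 0.11). Those that fell included Cckbr, Hes5 and Ldb2, a LIM domain-binding cofactor (log2 fold change -1.35 ± 0.30, adjusted p = 0.0039, not called without the choroid-rich arrays, at -1.37, or against the time-matched Control array alone, at -1.43). Not called were Csf2rb (-0.09), Cacna1g (-0.47), Pik3r1 (-0.26), Pik3r3 (-0.28), Runx1 (1.05), Bmp3 (-0.71), Map2k1 (-0.57), Mapk14 (-0.31) and Rasa2 (-0.13), and Pik3c2b and Adcy7, both flagged L on all Control arrays. Of these, the study named Pik3r1 for D7. It named Pik3r3, Runx1, Bmp3, Map2k1, Mapk14 and Rasa2 for the time after the first spontaneous seizure. Csf2rb, Cacna1g, Pik3c2b and Adcy7 it listed as higher at every time, D3 included. The study's limits were unlike those used here. It set a P limit of 0.05 with no adjustment stated, a 2-fold limit and saline groups matched in time. Here the p was adjusted, the 3 saline arrays were of mixed times, and only the brightest probe of each gene was read. The reason for the difference was not tested.

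In the TGF-beta, activin and BMP list as a whole 4 of 37 rose (10.8%) and 1 fell (2.70%), and in the IGF list 2 of 15 rose (13.3%). Over all genes 5.09% were called higher and 0.973% lower. When any single array was left out, 3 of the 5 calls of the first list and 2 of the 2 of the IGF list held. Of 32 measured genes of apoptosis and necroptosis 6 rose and 0 fell. Ripk3, the kinase of necroptosis, was at 2.92, 2.78, 2.14, 3.58 and 3.38 at D3 and at 0.251, 0.547 and 0.668 in Control (log2 fold change 2.69 ± 0.44, adjusted p = 0.00036). The death receptors Tnfrsf1a, at 2.12 ± 0.22 (adjusted p = 5.8e-06, 4 D3 arrays with a value), and Fas, at 1.95 ± 0.18 (adjusted p = 1.7e-06), also rose on their brightest probes, but the other probe of each was not called, at 0.58 for Tnfrsf1a and -0.50 for Fas, the opposite sign. In the same list Casp9 (-0.33) and Bax (0.38) were not called. Of 16 heat shock genes 3 rose, and apart from Hspb1 these were Hspa2 (1.27 ± 0.21) and Bag3 (1.12 ± 0.33), the latter not called without Control array 36 (1.05) or 47 (0.98), without the choroid-rich arrays (1.33) or against the time-matched Control array alone (0.70). Of 20 genes of nerve injury and regeneration 5 rose and 0 fell. Tubb6, a beta-tubulin, was at 11.9, 15.1, 8.52, 12.4 and 10.4 at D3 and at 1.30, 1.34 and 1.86 in Control (log2 fold change 2.95 ± 0.46, adjusted p = 0.00024), and was higher than at D7 by 1.89 ± 0.40. The groups of both Ripk3 and Tubb6 were far apart. Atf3 (-0.59), Gap43 (-0.54) and Jun (-0.18) were not called.

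Neuronal genes mostly lay below Control by less than 2-fold. Of 24 measured genes of hippocampal principal neurons 0 rose and 4 fell, against a background of 0.973% lower, with a median of -0.62, and the D3 arrays lay wholly below Control for 15. Of 35 genes of synaptic vesicles and the postsynaptic scaffold 0 rose and 2 fell, with a median of -0.59, and the D3 arrays lay wholly below Control for 23. Past the adjusted p alone, 12 of the 24 and 23 of the 35 were lower and 0 higher. Over all genes, the D3 arrays lay wholly below Control in 26.4%, and 16.5% were lower past the adjusted p alone. The mean of the synaptic list lay 0.70 to 0.42 below Control (as differences of -0.70 to -0.42 on the log2 scale) on the D3 arrays, against -0.06 to 0.09 on the Control arrays. These medians depend on the scaling: with positive control scaling they were -0.35 for the principal neurons and -0.33 for the synaptic genes, when the median probe lay at 0.138, and 3 and 1 of them fell.

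Fibcd1, which marks neurons of CA1, was at 12.8, 8.75, 17.2, 11.4 and 8.55 at D3 and at 41.1, 40.6 and 42.6 in Control (log2 fold change -1.87 ± 0.35, adjusted p = 0.0011, not called against the time-matched Control array alone, at -1.86). Nefm, a neurofilament, was at 7.22, 5.96, 7.94, 7.33 and 7.00 at D3 and at 17.2, 17 and 16.5 in Control (log2 fold change -1.26 ± 0.21, adjusted p = 0.00035). Calb1, calbindin, a calcium buffer of granule and CA1 cells, was at 2.81, 5.11, 2.33, 3.61 and 2.78 at D3 and at 8.58, 8.54 and 7.46 in Control (log2 fold change -1.35 ± 0.28, adjusted p = 0.0022, not called against the time-matched Control array alone, at -1.42). For all 3 the Control arrays agreed closely and every D3 array was lower. Camk2a, the alpha subunit of the calcium and calmodulin kinase II of synapses, was at 21.1, 9.21, 22.5, 19.3 and 24.2 at D3 and at 42.6, 42.6 and 35.8 in Control. The other probe of Camk2a, at -0.58, was not called. Array 12 stood apart from the other D3 arrays, and the call (-1.14 ± 0.29, adjusted p = 0.008) was lost without it (-0.89), with quantile normalization (-0.86), with positive control scaling (-0.88), without the choroid-rich arrays (-1.19) and against the time-matched Control array alone (-1.22). Below 2-fold, Slc17a7, the vesicular glutamate transporter of excitatory neurons, was at 31.3, 29.9, 41.6, 36.2 and 33.7 at D3 and at 53.6, 60.9 and 56.4 in Control (log2 fold change -0.73 ± 0.17, adjusted p = 0.0048). Prox1, the transcription factor of granule cells, was at 0.831, 0.503, 0.760, 0.701 and 0.646 at D3 and at 1.05, 1.20 and 1.21 in Control (-0.76 ± 0.17, adjusted p = 0.0041). Cplx1, complexin 1, with -0.97, and Shank3, a postsynaptic scaffold protein, with -0.93, came nearest to the limit among the synaptic genes not called.

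**Figure D5:**
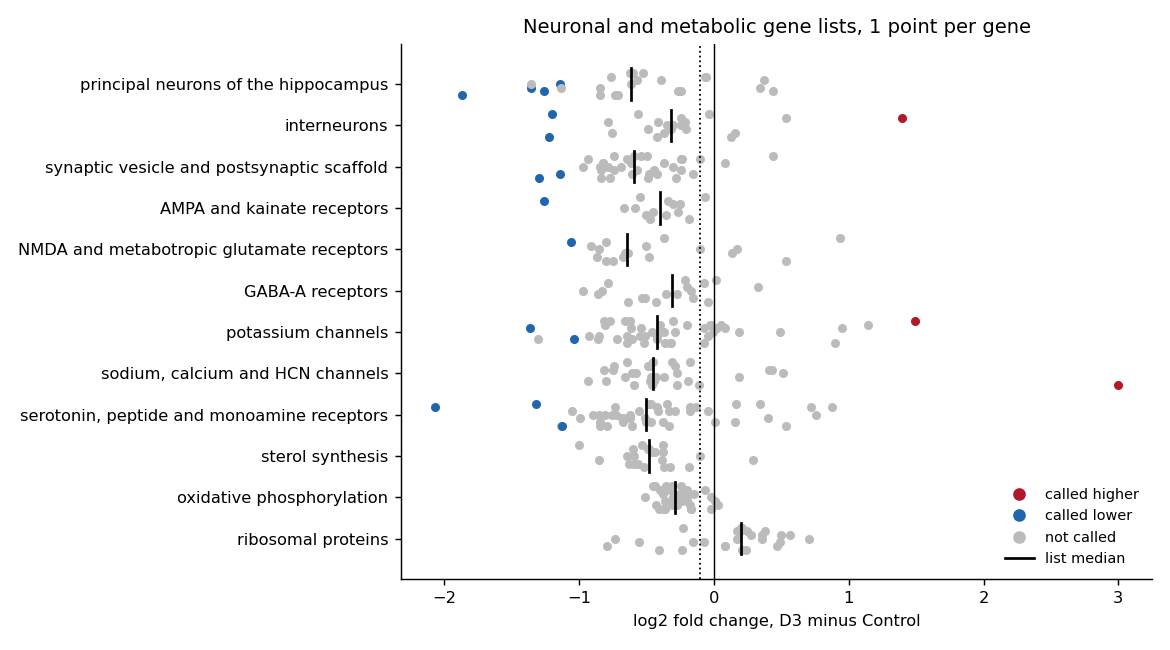
Log2 fold change (D3 minus Control) of each measured member of 12 neuronal and metabolic gene lists, 1 point per gene, with black bars at the list medians and a dotted line at the median of all genes (-0.10). Scn7a stands alone at 3.00, the medians of the neuronal lists lie between -0.65 and -0.31, and that of the ribosomal proteins lies above 0, at 0.20.

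Interneurons inhibit the principal cells through GABA. Of 21 measured genes of interneurons 1 rose and 2 fell, with a median of -0.32. Pvalb, parvalbumin, was at 2.16, 2.17, 2.35, 1.79 and 2.23 at D3 and at 4.38, 6.48 and 4.12 in Control (log2 fold change -1.20 ± 0.20, adjusted p = 0.00036), and was not called without Control array 36 (-1.0) or with positive control scaling (-0.94). Calb2, calretinin, had a log2 fold change of -1.22 ± 0.32 (adjusted p = 0.0091), and was not called without the choroid-rich arrays (-1.21), against the time-matched Control array alone (-1.31) or with positive control scaling (-0.96). Every D3 array was below every Control array for both. Npy, neuropeptide Y, was at 19.9, 35.2, 19.3, 26.8 and 23.8 at D3 and at 9.62, 9.26 and 8.89 in Control. The groups were apart and its log2 fold change was 1.40 ± 0.48, but with an adjusted p of 0.042 the call was lost when any of 7 of the 8 arrays was left out, with log2 fold changes of 1.26 to 1.47. Gad1, which makes GABA, had a log2 fold change of -0.57 ± 0.13 (adjusted p = 0.0039), and Sst, somatostatin, of -0.24.

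Receptors and channels changed little at the 2-fold limit. Over all genes 5.09% were called higher and 0.973% lower, the shares to set beside the counts here and in the following paragraphs. Of 14 AMPA and kainate receptor genes 0 rose and 1 fell, with a median of -0.40. This was Gria4, an AMPA receptor subunit, at 6.87, 6.48, 6.46, 6.62 and 4.90 at D3 and 14.1, 15.4 and 15.2 in Control (log2 fold change -1.26 ± 0.19, adjusted p = 0.00018), with the groups well apart. The other 3 probes of Gria4 were not called and lay between -0.50 and -0.33. Of 18 NMDA and metabotropic receptor genes 0 rose and 1 fell, Grm6, with a median of -0.65, and the fall of Grm6 (-1.06 ± 0.33, adjusted p = 0.027) was lost without D3 array 13 (-0.98) and without Control array 26 (-1.06), 36 (-0.99) or 47 (-1.12). Of 18 genes of GABA receptors and gephyrin 0 were called in either direction by limma at 2-fold, with a median of -0.31. Past the adjusted p alone 7 were lower and 0 higher, against 16.5% and 11.8% of all genes. The chloride exporter Slc12a5, which sets the direction of GABA currents, had a log2 fold change of -0.83 ± 0.16, with 21.1, 21.2, 26.3, 19.6 and 18.9 at D3 and 36.1, 41.1 and 36.4 in Control, and was not called at 2-fold.

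Of 49 potassium channel genes 1 rose and 2 fell, with a median of -0.42. Kcnn4, a calcium-activated channel of microglia and leukocytes, rose by 1.49 ± 0.31 (adjusted p = 0.0021), from 1.43, 1.29 and 1.52 to 4.87, 3.60, 3.61, 4.16 and 3.78, and was not called without the choroid-rich arrays (1.38) or against the time-matched Control array alone (1.47). Kcns3, a silent subunit of delayed rectifiers, was at 2.20, 3.05, 2.14, 2.81 and 2.30 at D3 and at 5.57, 7.49 and 6.17 in Control (log2 fold change -1.36 ± 0.28, adjusted p = 0.002, not called against the time-matched Control array alone, at -1.17). Of 31 sodium, calcium and HCN channel genes 1 rose and 0 fell, with a median of -0.45. The gene that rose was Scn7a, a sodium channel of glia and sensors of salt, at 6.07, 3.09, 5.0, 5.33 and 9.94 at D3 and 0.449, 0.856 and 0.840 in Control (log2 fold change 3.00 ± 0.37, adjusted p = 3.3e-05). Array 15 was the highest and array 12 the lowest, and each was above Control. Among the channels of the same list that carry neuronal sodium current, Scn2a had a log2 fold change of -0.93, Scn1a of -0.64 and Scn8a of -0.19, and none was called.

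Of 48 receptors for serotonin, peptides and monoamines 0 rose and 3 fell, with a median of -0.51. Htr5b, a serotonin receptor, was at 1.18, 0.719, 1.83, 1.02 and 1.13 at D3 and at 3.74, 5.64 and 4.94 in Control (log2 fold change -2.07 ± 0.45, adjusted p = 0.0029, not called against the time-matched Control array alone, at -1.74). Cckbr, the cholecystokinin B receptor, was at 2.19, 2.68, 2.87, 2.86 and 2.64 at D3 and at 6.23, 6.87 and 6.61 in Control (log2 fold change -1.32 ± 0.19, adjusted p = 0.00014). All D3 arrays were below Control for both. Of 28 neuropeptide precursors 3 rose and 3 fell. Gal, galanin, a peptide that dampens seizures, was at 4.90, 6.50, 4.39, 9.53 and 5.14 at D3 and at 1.91, 2.82 and 1.63 in Control (log2 fold change 1.5 ± 0.25, adjusted p = 0.00047), and Pdyn, prodynorphin, had a log2 fold change of -1.36 and was not called. Of 34 immediate early genes 1 rose and 1 fell. Nr4a3, an orphan nuclear receptor, was at 7.22, 8.14, 13.7, 9.37 and 12.2 at D3 and at 22.9, 28.3 and 21.6 in Control (log2 fold change -1.29 ± 0.22, adjusted p = 0.00052, not called against the time-matched Control array alone, at -1.22), while Fos had a log2 fold change of 1.19 ± 0.43 (adjusted p = 0.055) and Arc one of -1.06 ± 0.57 (adjusted p = 0.2). Of 23 purinergic genes 5 rose and 0 fell, and P2ry6, a receptor for uridine diphosphate on microglia, rose by 1.85 ± 0.30 (adjusted p = 0.00035).

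Sterol synthesis and oxidative phosphorylation shifted by small amounts in 1 direction. Of 22 measured genes of sterol synthesis 0 were called at 2-fold, but the median was -0.48, 17 had all D3 arrays below Control, and 14 were lower and 0 higher past the adjusted p alone. Over all genes, 26.4% had all D3 arrays below Control and 16.5% were lower past the adjusted p alone. Hmgcs1, at the head of the pathway, had a log2 fold change of -1.0. Of 36 genes of oxidative phosphorylation 0 were called and the median was -0.29. Past the adjusted p alone 13 were lower and 0 higher, against 16.5% and 11.8% of all genes. With quantile normalization the median of this list was -0.01 and with positive control scaling -0.03. The median probe then lay at -0.0588 and 0.138, against -0.119 in the main fit. The size of the shift, and the side of the median probe on which the list lies, thus rest on the scaling. The 22 sterol genes kept a median of -0.36 and -0.23 under these settings. Of 27 ribosomal protein genes 0 were called, with a median of 0.20. Of 18 oligodendrocyte and myelin genes 1 rose and 0 fell, with a median of 0.25, and of 18 genes of endothelium and blood-brain barrier 0 were called, with a median of 0.10. Hk2 and Hk3, hexokinases of the first step of glycolysis, were the only 2 of 22 glycolytic genes called. Hk3, found in myeloid cells, was at least 4.81-fold higher (adjusted p = 4.0e-05), and Hk2 rose by 1.51 ± 0.28 (adjusted p = 0.0014), a call lost against the time-matched Control array alone (1.55) and just short of the limit on its other probe, at 0.98.

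Among the genes with the largest falls, several were near background or rested on few arrays. Lbhd2, a gene named, like Igsf7 l1, from an expressed sequence, was at 0.707, 0.490, 0.300, 0.553 and 0.610 at D3 and at 1.72, 1.66 and 5.52 in Control. It had the largest fall, -2.29 ± 0.57 (adjusted p = 0.0075), was not called without Control array 47 (-1.72) or against the time-matched array alone (-1.75), and was also lower than at D7 (-2.28 ± 0.50) and in Chronic (-2.28 ± 0.50). Gpc3, a heparan sulfate proteoglycan, was at 2.22, 3.69, 1.96, 2.56 and 2.17 at D3 and at 7.28, 6.89 and 11.4 in Control, with no overlap. Its fall of -1.76 ± 0.22 (adjusted p = 3.1e-05) was called under every alternative, while its other probe, at -0.70, was not called. Klhl14 (-2.13 ± 0.47, adjusted p = 0.0035), Gdf10, a growth factor of the TGF-beta family (-1.86 ± 0.46, adjusted p = 0.007), and Kcnv2, a silent potassium channel subunit (-1.96 ± 0.41, adjusted p = 0.0023), were not called against the time-matched array alone (-2.01, -2.18 and -2.16), and Gdf10 and Kcnv2 were not called without the choroid-rich arrays (-1.43 and -1.25). The other probes of Klhl14, at 0.15, and of Kcnv2, at 0.45, were not called and had the opposite sign. Chodl, a lectin, at 0.653, 0.38, 0.0582, 0.429 and 0.305 at D3 and 1.38, 0.965 and 1.20 in Control, had a call (-2.04 ± 0.61, adjusted p = 0.021) that was lost without Control array 26 (-1.92) or 47 (-2.02), against the time-matched array alone (-2.28) and with positive control scaling (-1.78). For Hp, haptoglobin, the Control values were 0.445, 2.75 and 0.705, so that array 36 stood apart, and the call (-1.73 ± 0.56, adjusted p = 0.033) was lost without it (-0.97) and without D3 array 11, 12 or 15 (-1.68, -1.64 and -1.71). Vax1 and Gpr119 were flagged L on all D3 arrays and on all but 1 Control array. Their falls were thus at least 1.10-fold and 1.25-fold, and no more can be said of their size. The call of Vax1 was lost without D3 array 11 (-1.61) or 13 (-1.76) and without Control array 26 (-1.94), 36 (-1.85) or 47 (-1.82). It was also lost without the choroid-rich arrays (-1.53) and with positive control scaling (-1.61). That of Gpr119 was lost without Control array 36 (-1.64) or 47 (-1.58) and with positive control scaling (-1.47). Neither was called against the time-matched array alone (-1.73 and -1.27). Camkk2, a kinase upstream of other calmodulin-dependent kinases, was at 3.99, 4.94, 4.11 and 4.38 on the 4 D3 arrays with a value and at 11.2, 13.4 and 7.38 in Control. It fell by 1.25 ± 0.27 on the log2 scale (adjusted p = 0.0027), with its other probe not called at -0.66, and was lower than at D7 by a log2 difference of -1.0 ± 0.23, as was Agt, at -1.16 ± 0.18.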

How the data were processed

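RNA of the whole hippocampus of single rats was hybridised to 1-colour CodeLink arrays. The authors read the images with GenePix Pro and used CodeLink Expression Analysis to subtract the local background, divide by 1 constant per array and flag each spot. The deposited values are these normalized intensities, and they were used as deposited. Depth does not apply to arrays, whose number limits the precision. Gene probes flagged G or L were kept, values below percentile 1 of an array were set to that percentile, and log2 was taken. Probes with fewer than 3 values in a pilocarpine group or fewer than 2 in Control were dropped, which left 33800.

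All 4 groups were fitted with limma 3.58.1 in R 4.3.3 (lmFit, eBayes with an intensity trend), with Benjamini-Hochberg adjustment over all probes. A call needed a 2-fold or larger change together with an adjusted p under 0.05. A gene was represented by its brightest probe. Probes were named by the platform annotation (16740) or by accession (205), and 16739 had no name. Of 196 called genes with several probes, 82 had every other probe called the same way and 1 had a probe called the opposite way. A bound ("at least") replaces the fold where every spot of 1 group was flagged L. The fit was tested on simulated data.

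The genes named were the 12 largest rises and 12 largest falls whose groups did not overlap and that were not flagged L throughout, up to 4 called members of each list with the largest change, all called members of lists with fewer than 4 calls, the signaling genes named by the study, cell type markers, and up to 8 genes in each direction that also differed most from D7. A further 46 list members, most of them not called, were named after their values were seen. All lists and members were chosen with earlier results of these data known. The labels give 1 array per rat and no batch. A few genes that meet this rule are not reported here.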

Additional observations from a re-analysis of the deposited data

Results flagged for a closer look

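Among the genes named here that were called at D3 against Control, the following also differed between D3 and a later group in the same limma fit (log2 differences, D3 minus the later group). Both comparisons use the same D3 arrays, so that they are not independent. Against both D7 and Chronic, Pbk was higher by 2.133 and 3.471, Cdk1 by 2.016 and 3.249, Top2a by 1.763 and 3.054, Mki67 by 1.599 and 2.807, Ccna2 by 1.613 and 2.566, Kif20a by 1.491 and 2.644 (3 of 5 Chronic spots flagged G), and Cdc20 by 1.519 and 2.050. Among genes of astrocytes, myeloid cells and matrix, Lcn2 was higher by 2.268 and 2.468, Postn by 2.267 and 1.889, Fbln2 by 1.947 and 2.297, Hk3 by 1.556 and 1.383, Vim by 1.315 and 1.404, S100a4 by 1.268 and 1.126, and Nes by 1.146 and 1.264. Lbhd2 was lower, at -2.281 and -2.278, and so was Agt, at -1.161 and -1.112. Against D7 alone, Tubb6 differed by 1.893 and Camkk2 by -1.002. Against Chronic alone, Mcm5 differed by 2.811, Rrm2 by 2.731, Igsf7 l1 by 2.659 and S100a10 by 1.560, but of the 5 Chronic spots of these genes only 2, 1, 2 and 3 were flagged G, so that the sizes rest on values near background. Also against Chronic alone, Mcm6 differed by 1.503, Cybb by 1.485, Cd44 by 1.470, Lgals3 by 1.351, Cdkn2c by 1.248, Vcan by 1.112 and Plin2 by 1.020.

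In 10 of the 186 genes named, 1 D3 array lay far from the other 4 (its gap to the nearest as a share of the whole range above 0.71), and chance gives about 1 in 20 groups such a gap. Array 13 was the lowest for Aspg (0.721), Mcm5 (0.741), Pik3r1 (0.714) and Tnc (0.781). Array 15 was the lowest for Bmp3 (0.863), Cyp46a1 (0.729) and Gria4 (0.817) and the highest for Serping1 (0.808). Array 12 was the lowest for Camk2a (0.766), at 9.21 against 19.3 to 24.2 on the others, and array 11 the highest for Csf1r (0.736).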

How the results depend on the processing

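No gene named here changed direction under any alternative that called it. Of the 125 named genes that were called, all kept the call with percentile 75 scaling and array weights, 122 with quantile normalization, 115 with positive control scaling and 86 against the time-matched Control array alone, whose spread is then taken from the other groups. Without the choroid-rich arrays, chosen after the values were seen, 96 kept it and 6 could not be tested. With only spots flagged G 96 kept it and 29 could not be tested. The named genes leave out a few that met the naming rule and do not stand for all called genes. Among all called genes, 628 of the 628 rises but 91 of the 120 falls were kept with percentile 75 scaling. With array weights 623 rises and 115 falls were kept, with quantile normalization 593 and 74, and with positive control scaling 628 and 36. Over all genes, 411 of the 628 rises and 57 of the 120 falls were kept without the choroid-rich arrays, and 401 and 34 against the time-matched array. Probes higher at D3 than in Control (1157) numbered 747 without the choroid-rich arrays, 657 with only spots flagged G, 1796 with positive control scaling and 2673 with no fold limit. Probes lower (395) numbered 256 with quantile normalization, 186 against the time-matched array, 219 without the choroid-rich arrays, 236 with only spots flagged G, 91 with positive control scaling and 4815 with no fold limit. Genes higher (628) numbered 955 with positive control scaling and 1459 with no fold limit, and genes lower (120) 74 with quantile normalization, 65 against the time-matched array, 76 without the choroid-rich arrays, 36 with positive control scaling and 2036 with no fold limit. With 1 array left out, 1004 to 1245 probes were higher and 280 to 414 lower. Against D7, probes higher at D3 numbered 145 with array weights and 35 to 132 with 1 array left out (35 without D3 array 12, 48 without D3 array 15, 46, 132 and 39 without D7 arrays 32, 33 and 34), and probes lower 14 with quantile normalization, 57 with array weights and 13 to 34 with 1 array left out. Against Chronic, probes lower numbered 35 with quantile normalization and 35 to 78 with 1 array left out. The cause of these shifts was not tested. No paired analysis was possible because no replicate number occurs in more than 1 group. Another background correction and a slide or scan block were not run, since the values used were already background-subtracted and the files give no slide or scan.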
